A study of Mus musculus with 10 samples.

Results

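The genes described here encode the glycosyltransferases that build and cap mucin-type O-linked sugar chains, together with the close relatives that share their gene names. They were chosen by symbol alone, as the protein-coding genes whose symbol begins with Galnt, Galntl, B3gnt, B4galnt, Gcnt, C1galt, Fut, St3gal, St6gal or St6galnac followed by a digit. Of 43432 gene identifiers in the count files, 60 were such genes. The rule uses no measured value, but the family was chosen with earlier results of these data known. The family holds 19 genes for initiation, 2 for core 1, 5 for branching, 8 for core 3 and chain extension, 4 beta-1,4-GalNAc transferases, 8 fucosyltransferases, 6 alpha-2,3-sialyltransferases and 8 alpha-2,6-sialyltransferases. The name of the family is wider than mucins, because Fut8, St6gal1 and St6gal2 act on N-linked chains and B4galnt1 and St3gal5 act on glycolipids.

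The libraries were RNA-seq of tuft cells, rare chemosensory cells named for their bundle of apical microvilli, from thymus (n = 4) and small intestine (SI, n = 3), and of the remaining SI epithelium (n = 3). All mice were naive males of 12 weeks with the strain C57BL6.Il25(Flare25/Flare25), which carries a fluorescent reporter in both copies of Il25, so no group lacks the reporter allele. Every library came from 1 mouse, and replicates were therefore separate animals. Tuft cells were sorted as live CD45-negative EPCAM-positive Flare25-positive cells, 1350 to 1900 per thymic library and 35000 to 36000 per SI library. The SI epithelium, labelled as total epithelium, was the Flare25-negative part of the same gate, 52000 to 57000 cells per library. Thymic cells were released with Liberase TM and DNase I and enriched on Percoll, whereas SI cells were released with DTT and EDTA. Organ, dissociation and cell number therefore cannot be told apart in either comparison with thymic cells. Mitochondrial genes held 4.38% to 5.97% of the counts in thymic tuft cells, 24.1% to 33.5% in SI tuft cells and 18.6% to 23.7% in SI epithelium, and the part of this in the results was not tested.

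Mucin-type O-glycosylation starts in the Golgi, where a polypeptide GalNAc transferase (a Galnt enzyme) places N-acetylgalactosamine (GalNAc) on serine or threonine. C1galt1 adds galactose to make core 1, for which it needs its chaperone C1galt1c1, also called Cosmc. Gcnt enzymes branch core 1 into core 2, B3gnt6 makes core 3 instead, and fucose or sialic acid caps the chain ends. In the intestine such chains coat the secreted mucins of goblet cells and the membrane mucins of the brush border, and in the thymus the fucose-binding lectin UEA-I is a standard stain for medullary epithelium.

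Libraries held 38659882 to 73574745 gene counts. Levels below are in CPM, gene counts over the TMM-scaled library size, and are given for thymic tuft replicates 1 to 4, SI tuft replicates 2 to 4 and SI epithelium replicates 1 to 3. Tuft cell markers (Pou2f3, Trpm5, Dclk1, Avil, Il25 and Ptgs1) summed to 3680 to 4480 CPM in thymic tuft cells, 10600 to 13600 CPM in SI tuft cells and 100 to 189 CPM in SI epithelium. A set of 8 goblet cell markers summed to 1570 to 2720 CPM in thymic tuft cells, 2300 to 2850 CPM in SI tuft cells and 109000 to 118000 CPM in SI epithelium, and none of the 8 was at 0 in any group. Medullary thymic epithelial markers (Aire, Krt5, Krt14, Fezf2 and Ly6d) summed to 1290 to 1470 CPM in thymic tuft cells, 0.218 to 1.63 CPM in SI tuft cells, where Krt14 was at 0, and 5.84 to 8.89 CPM in SI epithelium. A set of 7 enterocyte markers summed to 147 to 352 CPM in thymic tuft cells, 24600 to 30400 CPM in SI tuft cells and 12800 to 15000 CPM in SI epithelium.

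Pairs of libraries shared a small part of their counts, which bears on any gene that is abundant in one group and nearly absent in another. Over 282 genes with many thymic counts and at most 2 SI tuft counts, SI epithelium library 1 held 0.585% of the counts of thymic library 3, epithelium library 2 0.601% of those of thymic library 2, and epithelium library 3 0.6% of those of thymic library 1. In the other direction the shares, over 6 genes, were 0.914% in thymic library 3, 0.948% in library 2 and 0.876% in library 1. No SI epithelium library had thymic library 4 as its partner. Sharing with the SI tuft libraries was not tested, because the genes used were chosen as nearly absent from SI tuft cells. Those of the other direction were also chosen as nearly absent from thymic library 4. Values after subtraction of the partner's share are given below wherever they change a result. In sorted populations a lower share of cells carrying a transcript and less transcript per cell cannot be told apart.

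Of the 60 genes, 54 passed the filter on low counts and 48 were called in at least 1 comparison by edgeR's quasi-likelihood test at an adjusted p below 0.05. The genes left untested were B3gnt4, Fut10, Galnt2, Galntl5, St6galnac3 and St6galnac5. B3gnt8, B3gnt9, B4galnt3, Fut11, Galnt11 and St3gal3 were tested and called nowhere. Between thymic and SI tuft cells 17 genes were higher and 22 lower in thymic tuft cells, where 28.5% and 23.1% of all 19281 tested genes were called. Between thymic tuft cells and SI epithelium 16 were higher and 25 lower in thymic tuft cells, against 28.6% and 22.3% of all genes. Between SI tuft cells and SI epithelium 8 were higher and 20 lower in SI tuft cells, against 10.9% and 11.4% of all genes. The median log2 fold changes of the tested family genes were −0.54, −0.40 and −0.66 in these comparisons, where those of all genes were 0.12, 0.15 and −0.10. These counts and medians describe the family, and nothing particular to it is read from them. Scaling by DESeq2 size factors set the medians of all genes at 0.36, 0.38 and −0.11, and no called direction in the family turned, although the call of St3gal2 between thymic and SI tuft cells was lost.

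**Figure D1:**
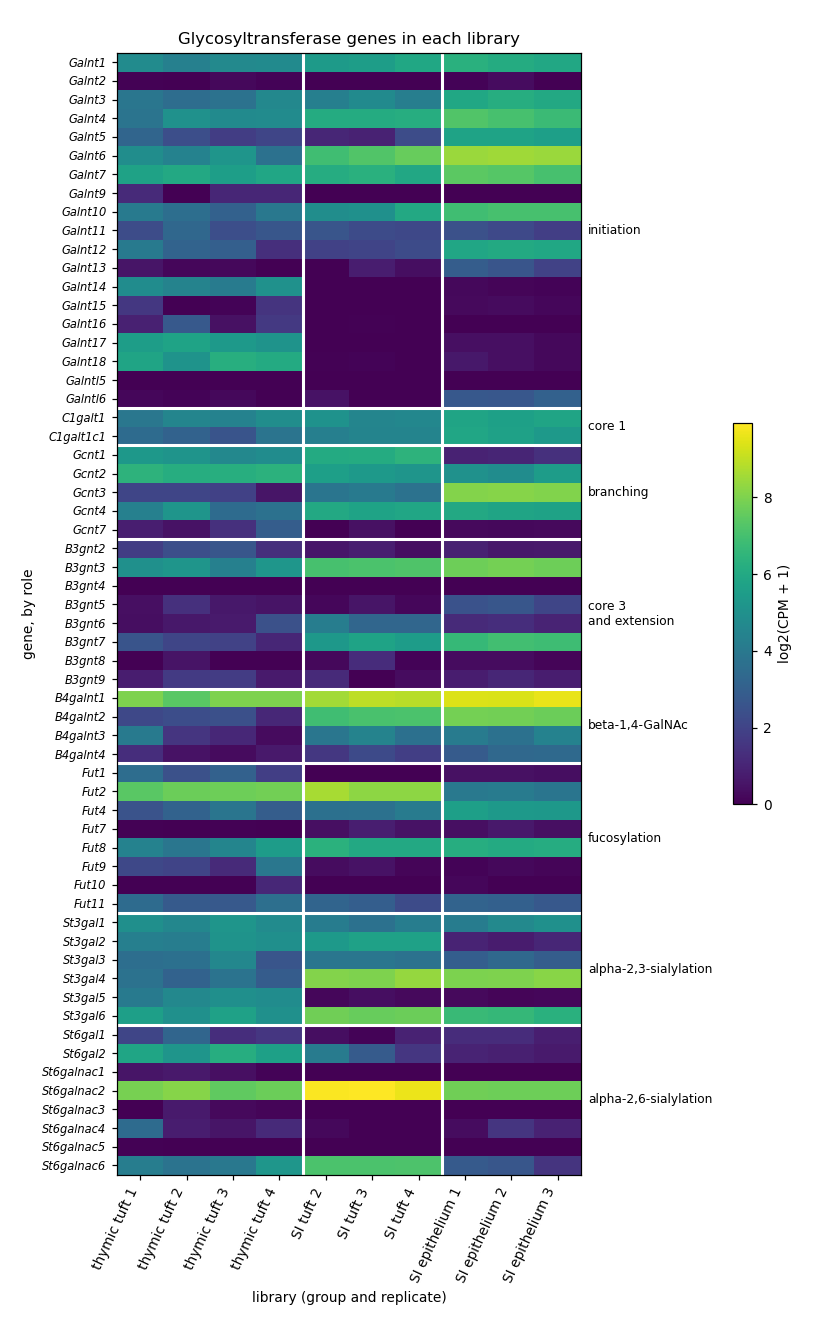
Level of each of the 60 genes (rows, grouped by role) in each of the 10 libraries (columns, thymic tuft, SI tuft and SI epithelium from left to right), as log2(CPM + 1). B4galnt1 and St6galnac2 are bright in all libraries, Gcnt3 is bright only in SI epithelium (267 to 276 CPM), and Galnt14, Galnt17 and Galnt18 stand out only in the 4 thymic tuft libraries.

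The patterns across the 3 groups differed between related genes. Fut2, Gcnt1, St3gal2, St6galnac6 and St6gal2 were higher in both tuft populations than in SI epithelium, and 16 genes were lower in both. Both comparisons use the same SI epithelium libraries. How many of all genes were called the same way in both was not counted, and nothing particular to the family is read from these numbers. All 4 of Fut2, Gcnt1, St3gal2 and St6galnac6 were lower in thymic than in SI tuft cells, whereas St6gal2 was higher there. Galnt14, Galnt17, Galnt18, Fut1 and St3gal5 were high in thymic tuft cells and near 0 elsewhere. The 250 bases upstream of a RefSeq start (build GRCm38.p6) are shown for 3 genes that carry these patterns, 1 high in both tuft populations with the SI higher, 1 high in both with the thymus higher, and 1 high in thymic tuft cells alone. They are written in lower case, and capitals mark CG pairs, which are dense in CpG island promoters.
Gcnt1 (chr19:17372845-17373094, minus strand): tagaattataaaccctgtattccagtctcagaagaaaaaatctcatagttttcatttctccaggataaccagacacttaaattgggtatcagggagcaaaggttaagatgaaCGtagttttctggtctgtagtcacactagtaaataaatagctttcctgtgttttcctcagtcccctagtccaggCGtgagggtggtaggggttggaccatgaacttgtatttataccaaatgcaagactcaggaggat
St6gal2 (chr17:55445132-55445381, plus strand): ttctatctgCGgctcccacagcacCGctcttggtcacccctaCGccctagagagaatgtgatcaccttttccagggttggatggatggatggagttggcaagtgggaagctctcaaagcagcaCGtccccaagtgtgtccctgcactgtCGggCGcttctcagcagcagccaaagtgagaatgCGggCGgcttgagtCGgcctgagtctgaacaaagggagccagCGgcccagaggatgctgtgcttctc
Galnt14 (chr17:73710452-73710701, minus strand): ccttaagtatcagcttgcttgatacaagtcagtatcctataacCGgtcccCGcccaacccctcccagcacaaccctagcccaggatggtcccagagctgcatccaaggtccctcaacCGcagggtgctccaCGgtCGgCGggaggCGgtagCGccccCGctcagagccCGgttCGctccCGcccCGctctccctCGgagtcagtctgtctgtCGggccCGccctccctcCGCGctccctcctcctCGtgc
These windows hold 2, 10 and 19 CG pairs. The Gcnt1 window is that of its 5′-most start, and its other start sites have 10 and 2 CG pairs. Among the 32851 RefSeq windows of the same length, 29.0% hold 2 or fewer, 37.8% hold 10 or more and 19.7% hold 19 or more. The table had an entry for 42 of the 60 genes, with 59 start sites and a median of 12 CG pairs, against 6 over all windows. The window of Galnt14 overlaps its first exon by 2 bases, and those of Gcnt1 and St6gal2 overlap no exon.

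Among the initiating enzymes, thymic tuft cells had a set of transcripts that the intestinal cells lacked. Galnt18 (ENSMUSG00000038296, chr7:111471661-111779977) had 54.6, 33.4, 74.5 and 65.5 CPM in thymic tuft cells, 0.0486, 0.0817 and 0 CPM in SI tuft cells and 0.565, 0.340 and 0.151 CPM in SI epithelium. Galnt17, in human a gene of the Williams-Beuren region (ENSMUSG00000034040, chr5:130872082-131308497) had 45.0, 52.9, 40.9 and 33.6 CPM in thymic tuft cells, no count in any SI tuft library and 0.339, 0.318 and 0.167 CPM in SI epithelium. Galnt14 (ENSMUSG00000024064, chr17:73493228-73710453) had 27.7, 20.7, 16.7 and 31.2 CPM in thymic tuft cells, no count in SI tuft cells and 0.169, 0.106 and 0.0757 CPM in SI epithelium. The thymic libraries lay far above all intestinal ones for each of these genes. Galnt18 was higher in thymic than in SI tuft cells by a log2 fold change of 10.29 (SE 0.73, adjusted p = 3.2e-07), and by 11.02, a fitted value on 2 SI tuft counts, without SI tuft library 3. Set against 3 counts over the whole SI tuft group, Galnt17 was at least 1660-fold and Galnt14 at least 928-fold higher in thymic tuft cells (adjusted p = 1.33e-07 and 7.1e-07).

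Against SI epithelium the log2 fold changes of thymic tuft cells were 7.35 (SE 0.60, adjusted p = 9.75e-07) for Galnt18, 7.30 (SE 0.44, 4.75e-07) for Galnt17 and 7.67 (SE 0.57, 2.11e-06) for Galnt14. The counts in SI epithelium were 0.301% to 0.901% of those in the partner thymic library for Galnt18, 0.402% to 0.636% for Galnt17 and 0.297% to 0.779% for Galnt14, ranges that span or lie near the shared 0.585% to 0.601%. With that part subtracted, SI epithelium held 5 counts of Galnt18 in all, 1 of Galnt17 and 2 of Galnt14. The log2 fold change of Galnt18 was then 10.80, and none is given for the other genes, whose counts lie under the floor of 3 counts over the group. The fit as made called all 3 genes lower in SI tuft cells against SI epithelium, with adjusted p = 0.0141 for Galnt18, 0.00041 for Galnt17 and 0.00429 for Galnt14. After subtraction none was called, with adjusted p = 0.862, 0.503 and 0.327, and the log2 fold change of Galnt18 turned from −2.94 to 0.43. Galnt18 also lost this call without SI epithelium library 1 (−2.41, adjusted p = 0.0585) or with only these 2 groups in the fit (adjusted p = 0.0898), and stood at −3.67 without SI tuft library 3. Medullary thymic markers are high in the same thymic libraries, as given above, and their part in these differences was not tested.

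Galnt6, Galnt4 and Galnt10 were lower in thymic tuft cells than in both intestinal groups. Galnt6, known in human for its action on fibronectin, had 28.4, 20.4, 35.5 and 12.2 CPM in thymic tuft cells, 118, 150 and 197 CPM in SI tuft cells and 345, 365 and 342 CPM in SI epithelium. Galnt4, an enzyme that in human prefers peptides already carrying GalNAc, had 13.0, 31.9, 25.7 and 27.0 CPM in thymic tuft cells, 67.6, 67.6 and 72.1 CPM in SI tuft cells and 150, 131 and 108 CPM in SI epithelium. Galnt10, which shares that preference, had 15.8, 10.9, 7.48 and 14.8 CPM in thymic tuft cells, 28.5, 30.9 and 63.5 CPM in SI tuft cells and 116, 132 and 131 CPM in SI epithelium. For all 3 genes the groups did not overlap and stood in the same order, thymic tuft cells lowest and SI epithelium highest. Thymic tuft cells were below SI tuft cells by log2 fold changes of −2.68 for Galnt6 (SE 0.30, adjusted p = 1.48e-05), −1.50 for Galnt4 (SE 0.25, adjusted p = 0.000414) and −1.74 for Galnt10 (SE 0.31, adjusted p = 0.000593). SI tuft cells were below SI epithelium by −1.18 for Galnt6 (SE 0.32, adjusted p = 0.0192), −0.91 for Galnt4 (SE 0.27, adjusted p = 0.033) and −1.63 for Galnt10 (SE 0.34, adjusted p = 0.00438). The Galnt6 call in SI tuft cells was lost without SI epithelium library 1 or 2 or SI tuft library 2 or 3 (adjusted p = 0.05 to 0.0755). That of Galnt4 was lost without SI epithelium library 1 or 2 or any 1 SI tuft library (adjusted p = 0.0748 to 0.124). Galnt4 shares 420 exon bases with Poc1b on the same strand, whose mean was 24.9 CPM in thymic tuft cells, 50.0 CPM in SI tuft cells and 64.0 CPM in SI epithelium, so reads could be split between them.

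A further group of initiating enzymes was low in both tuft populations. Galnt12 had 15.8, 7.95, 7.04 and 1.54 CPM in thymic tuft cells, 2.77, 3.08 and 3.83 CPM in SI tuft cells and 57.8, 64.3 and 60.2 CPM in SI epithelium. Galnt5 had 8.44, 4.18, 2.47 and 3.19 CPM in thymic tuft cells, 1.12, 0.925 and 3.99 CPM in SI tuft cells and 53.2, 53.6 and 48.2 CPM in SI epithelium. The epithelium stood above every tuft library for both, by log2 fold changes of −4.24 (SE 0.64, adjusted p = 0.000466) and −4.68 (SE 0.64, adjusted p = 0.000235) in SI tuft cells. Tuft libraries of both organs overlapped for both genes and neither was called between them (adjusted p = 0.0605 for Galnt12 and 0.086 for Galnt5). Galnt12 was called higher in thymic tuft cells without thymic library 4 (1.67, adjusted p = 0.00103), and Galnt5 without SI tuft library 4 (2.16, adjusted p = 0.00543). Both were also called higher there with DESeq2 size factors (adjusted p = 0.0322 and 0.0469). Without that same SI tuft library Galnt5 stood −5.66 below SI epithelium in SI tuft cells.

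Galnt3, known for its action on the hormone FGF23, had 14.0, 10.7, 12.3 and 23.6 CPM in thymic tuft cells, 18.5, 26.2 and 17.8 CPM in SI tuft cells and 59.8, 72.4 and 63.5 CPM in SI epithelium. Galnt7 had 51.5, 63.4, 46.9 and 57.4 CPM in thymic tuft cells, 70.8, 78.8 and 60.5 CPM in SI tuft cells and 174, 159 and 132 CPM in SI epithelium. Galnt1, a broadly expressed initiator, had 26.7, 19.2, 24.6 and 25.9 CPM in thymic tuft cells, 41.3, 44.6 and 59.2 CPM in SI tuft cells and 78.5, 68.5 and 60.4 CPM in SI epithelium. The epithelium was again the highest group, although the lowest Galnt1 library of SI epithelium lay just above the highest of SI tuft cells. In SI tuft cells Galnt3 and Galnt7 were below SI epithelium by −1.65 (SE 0.31, adjusted p = 0.00225) and −1.14 (SE 0.18, adjusted p = 0.000697), and their tuft groups overlapped. Galnt3 was called lower in thymic than in SI tuft cells without thymic library 4 (−0.76, adjusted p = 0.0129). Galnt1 was lower in thymic than in SI tuft cells (−1.0, SE 0.20, adjusted p = 0.00124) and was not called between SI tuft cells and SI epithelium (−0.52, adjusted p = 0.109), except with only these 2 groups in the fit (adjusted p = 0.0382).

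Of the 19 initiating enzyme genes 17 were tested, and 6 were higher and 4 lower in thymic than in SI tuft cells, with a median log2 fold change of 0.43. These were 35.3% and 23.5% of those tested, beside 28.5% and 23.1% of all genes. Against SI epithelium, 0 were called higher and 11 lower in SI tuft cells, with a median of −1.65, and the number higher was also 0 at an unadjusted p below 0.05 in edgeR and by the DESeq2 Wald test. In thymic tuft cells 5 were higher and 10 lower than in SI epithelium, with a median of −1.52. Over all genes 28.6% were called higher and 22.3% lower there, and 10.9% and 11.4% in SI tuft cells against SI epithelium. Nothing particular to the role is read from these counts. The initiating enzyme genes not given above stayed below 20 CPM in every group mean. Galnt11 had 3.95 to 8.97 CPM in thymic tuft cells, 3.46 to 5.18 CPM in SI tuft cells and 2.57 to 4.52 CPM in SI epithelium. Galntl5 had no count in any library. Galnt15 averaged 0.979 CPM in thymic tuft cells, 0 CPM in SI tuft cells and 0.181 CPM in SI epithelium. It was called higher in thymic than in SI tuft cells (adjusted p = 0.0169), a call lost with the replicate block (adjusted p = 0.0682). Thymic libraries 1 and 4 had 2.04 and 1.81 CPM of Galnt15, and libraries 2 and 3 had 0 and 0.0722 CPM. Galnt9 and Galnt16 averaged 0.859 and 2.31 CPM in thymic tuft cells, against 0 and 0.0181 CPM in SI tuft cells and 0 CPM for both in SI epithelium. Galnt16 had 5.82 CPM in thymic library 2 and 0.376 to 2.17 CPM in the others, and without library 2 its calls held (adjusted p = 0.0173 against SI tuft cells and 0.00528 against SI epithelium). Galnt9 was called higher in both comparisons (adjusted p = 0.0217 and 0.0181), but it had no count in thymic library 2, and it lost the call against SI tuft cells without any 1 SI tuft library (adjusted p = 0.0503 to 0.0525) and that against SI epithelium without epithelium library 3 (0.0514). Galnt13 and Galntl6 were detected mainly in SI epithelium, at 4.86 and 6.15 CPM, against 0.191 and 0.0838 CPM in thymic tuft cells and 0.342 and 0.130 CPM in SI tuft cells. Galnt2 had at most 0.255 CPM in any library, and 3854 of its exon bases are shared with Gm20388 on the same strand, so its reads may not have been counted for either gene.

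Per length, the enzymes that start the chain made up a different mix in each population. Levels in CPM per kilobase of exon can be summed over genes, and the initiating enzymes summed to 68.3 ± 5.70 in thymic tuft cells, 89.9 ± 14.5 in SI tuft cells and 235 ± 12.1 in SI epithelium (SD, n = 4, 3 and 3). Galnt14, Galnt17 and Galnt18 together held 36.9% to 49.8% of this sum in thymic tuft cells, 0 to 0.0358% in SI tuft cells and 0.0404% to 0.119% in SI epithelium. Galnt6 held 4.56% to 12.6% in thymic tuft cells, 40.2% to 48.4% in SI tuft cells and 37.3% to 40.0% in SI epithelium. The SI tuft and SI epithelium libraries thus had much the same leading enzyme at different summed levels.

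**Figure D2:**
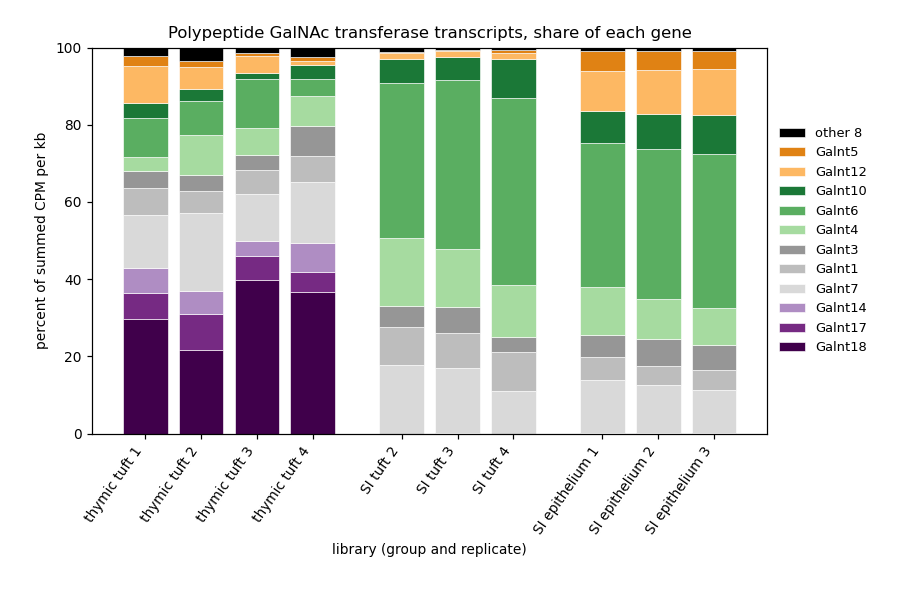
Share of each initiating enzyme gene in the summed CPM per kilobase of all 19 (y axis, percent) in each library (bars, thymic tuft, SI tuft and SI epithelium from left to right). Galnt18, Galnt17 and Galnt14, at the bottom, hold 36.9% to 49.8% in the 4 thymic tuft libraries and are not visible in the others, where Galnt6 is the widest band.

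Core 1 synthesis transcripts were lower in tuft cells. C1galt1, the core 1 synthase, had 14.5, 21.7, 20.4 and 28.6 CPM in thymic tuft cells, 32.9, 21.8 and 23.3 CPM in SI tuft cells and 54.7, 48.9 and 55.4 CPM in SI epithelium. Its chaperone C1galt1c1 had 10.0, 7.76, 4.94 and 13.0 CPM in thymic tuft cells, 18.5, 21.3 and 21.3 CPM in SI tuft cells and 57.6, 50.2 and 39.3 CPM in SI epithelium. The epithelial libraries lay above all tuft libraries for both genes, and the tuft populations overlapped only for C1galt1. In SI tuft cells C1galt1 was lower than in SI epithelium by −1.03 (SE 0.27, adjusted p = 0.017) and C1galt1c1 by −1.27 (SE 0.33, adjusted p = 0.0163). The first call was lost without SI epithelium library 1 or 3 or SI tuft library 3 or 4 (adjusted p = 0.0581 to 0.071). The second was lost without SI epithelium library 1 or 2 or SI tuft library 2 (adjusted p = 0.0563 to 0.0774). Against SI epithelium thymic tuft cells were lower by −1.32 (SE 0.25, adjusted p = 0.000935) for C1galt1 and −2.46 (SE 0.31, adjusted p = 4.02e-05) for C1galt1c1, and both calls held when any 1 library was left out. Between thymic and SI tuft cells C1galt1c1 was lower in thymic cells (−1.19, adjusted p = 0.00639), a call lost with only these 2 groups in the fit (−1.02, adjusted p = 0.0647), and C1galt1 was not called (−0.29, adjusted p = 0.362).

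The core 2 branching enzymes Gcnt1 and Gcnt3 ran in opposite directions, Gcnt1 high in both tuft populations and Gcnt3 in the rest of the SI epithelium. Gcnt1 (ENSMUSG00000038843, chr19:17326141-17372844), the widespread core 2 enzyme, had 38.5, 34.5, 23.6 and 27.7 CPM in thymic tuft cells, 66.5, 67.6 and 84.4 CPM in SI tuft cells and 0.941, 1.06 and 1.62 CPM in SI epithelium. Gcnt3 (ENSMUSG00000032226, chr9:70031496-70038088), the core 2 and core 4 enzyme of mucus-secreting tissues, had 3.27, 3.24, 2.82 and 0.494 CPM in thymic tuft cells, 13.6, 16.1 and 12.3 CPM in SI tuft cells and 270, 276 and 267 CPM in SI epithelium. Every tuft library lay above SI epithelium for Gcnt1 and below it for Gcnt3. In SI tuft cells Gcnt1 was higher than in SI epithelium by 5.91 (SE 0.33, adjusted p = 1.11e-07) and Gcnt3 was lower by −4.27 (SE 0.50, adjusted p = 6.55e-05). In thymic tuft cells the differences from SI epithelium were 4.68 (SE 0.31, adjusted p = 1.65e-07) and −6.78 (SE 0.50, adjusted p = 4.21e-07). Per kilobase, Gcnt1 held 86.2% to 97.7% of the sum of both in thymic tuft cells, 75.8% to 83.7% in SI tuft cells and 0.26% to 0.452% in SI epithelium.

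Both enzymes were lower in thymic than in SI tuft cells, Gcnt1 by −1.23 (SE 0.24, adjusted p = 0.00127) and Gcnt3 by −2.51 (SE 0.43, adjusted p = 0.000423). Thymic libraries 1 to 3 held 1.13% to 1.36% as many Gcnt3 counts as their epithelial partners, and with the shared part subtracted they had 0.740, 0.923 and 0.925 CPM beside 0.494 CPM in library 4. The log2 fold change of Gcnt3 in thymic tuft cells was then −4.09 against SI tuft cells and −8.38 against SI epithelium. Goblet cell markers were likewise far higher in SI epithelium than in both tuft groups, at 109000 to 118000 CPM. Sets of Paneth (10300 to 13600 CPM), enteroendocrine (9050 to 12800 CPM) and stem and cycling cell markers (1610 to 2090 CPM) were also highest there. Between the tuft groups the goblet marker Fcgbp alone went the other way from Gcnt3, averaging 1680 CPM in thymic and 546 CPM in SI tuft cells. The part of these cell types in the Gcnt3 level was not tested.

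Gcnt2, which makes the I-antigen branch of lactosamine chains, had 85.9, 72.9, 73.8 and 82.7 CPM in thymic tuft cells, 48.0, 40.9 and 35.6 CPM in SI tuft cells and 31.7, 27.7 and 43.6 CPM in SI epithelium. Gcnt4, another core 2 enzyme, had 19.2, 34.9, 10.1 and 12.2 CPM in thymic tuft cells, 62.3, 53.6 and 57.7 CPM in SI tuft cells and 62.7, 55.5 and 52.4 CPM in SI epithelium. Both intestinal groups overlapped for Gcnt2 and for Gcnt4, and the thymic libraries stood above them for Gcnt2 and below them for Gcnt4. Between thymic and SI tuft cells the log2 fold changes were 0.93 for Gcnt2 (SE 0.20, adjusted p = 0.00218) and −1.60 for Gcnt4 (SE 0.35, adjusted p = 0.00242). Gcnt7 averaged 2.32 CPM in thymic tuft cells, against 0.118 CPM in SI tuft cells and 0.184 CPM in SI epithelium. It was called higher in thymic than in SI tuft cells (adjusted p = 0.0437), a call lost without any 1 SI epithelium library, SI tuft library 2 or 4, or thymic library 3 or 4 (adjusted p = 0.0521 to 0.117). SI tuft library 3 held all 13 of its SI tuft counts, thymic library 4 alone had 6.52 CPM, and without thymic library 4 its log2 fold change was 2.96, where the fit as made gave 4.28.

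**Figure D3:**
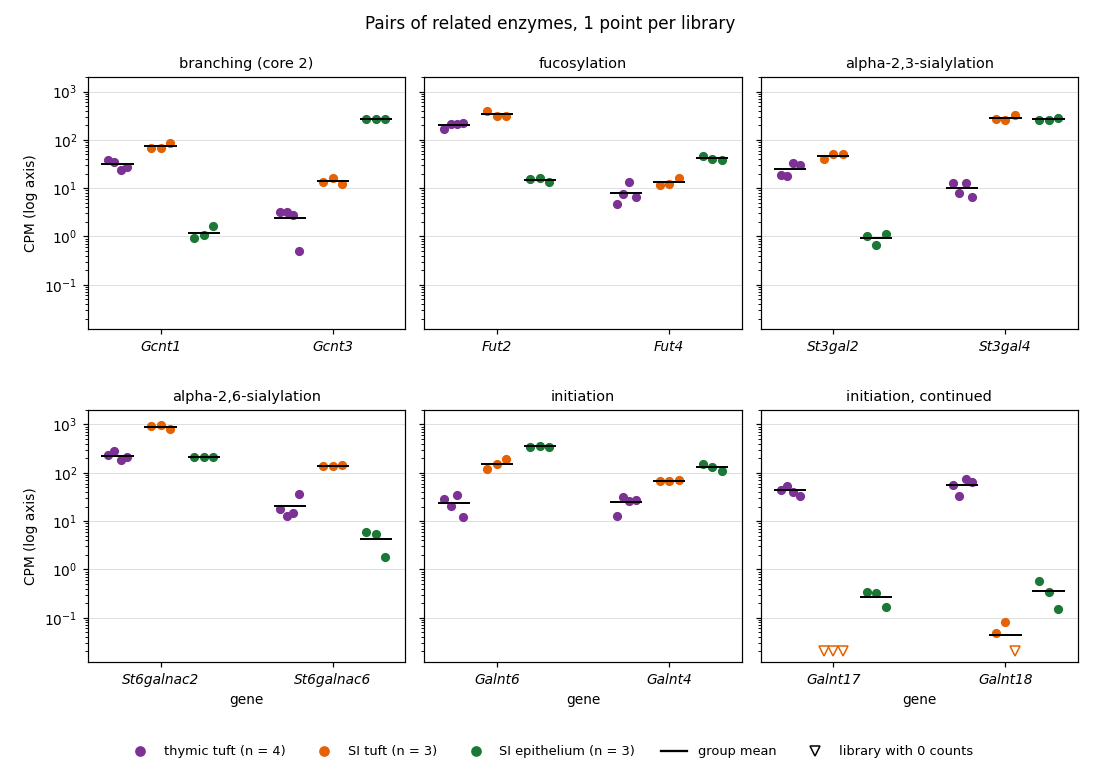
CPM on a log axis for 6 pairs of related enzymes, with 1 point per library (thymic tuft, SI tuft and SI epithelium from left to right for each gene), the group mean as a line and open triangles for libraries with 0 counts. Gcnt1 and Fut2 are high in both tuft groups and low in SI epithelium, Gcnt3 and Fut4 show the reverse, and St3gal4 is at 6.41 to 12.8 CPM in thymic tuft cells against 252 CPM or more in both intestinal groups.

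Of the enzymes that make core 3 or extend chains with GlcNAc, the abundant ones were lower in tuft cells. B3gnt3, which extends core 1, had 30.9, 35.7, 19.1 and 36.1 CPM in thymic tuft cells, 132, 140 and 145 CPM in SI tuft cells and 215, 234 and 214 CPM in SI epithelium. B3gnt7, which extends keratan sulphate and related chains, had 4.98, 3.17, 2.92 and 1.08 CPM in thymic tuft cells, 38.4, 53.2 and 43.6 CPM in SI tuft cells and 101, 120 and 114 CPM in SI epithelium. The 3 groups did not overlap for either gene. Thymic tuft cells were lower than SI tuft cells by −2.19 for B3gnt3 (SE 0.20, adjusted p = 2.78e-06) and −3.89 for B3gnt7 (SE 0.38, adjusted p = 4.93e-06). SI tuft cells were lower than SI epithelium by −0.67 for B3gnt3 (SE 0.21, adjusted p = 0.0418) and −1.31 for B3gnt7 (SE 0.39, adjusted p = 0.0294). Without any 1 intestinal library both of these calls were lost (adjusted p = 0.0849 to 0.126 for B3gnt3 and 0.0548 to 0.0967 for B3gnt7), and B3gnt3 lost its call without thymic library 1 (0.0518) or after subtraction (0.0541).

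B3gnt6, the core 3 synthase, was higher in SI tuft cells than in both other groups. It had 0.280, 0.565, 0.650 and 4.49 CPM in thymic tuft cells, 17.7, 8.66 and 8.84 CPM in SI tuft cells and 1.28, 1.49 and 1.01 CPM in SI epithelium. SI tuft cells did not overlap with either group, and thymic library 4 lay above the other thymic libraries. In thymic tuft cells it was lower than in SI tuft cells by −2.97 (SE 0.85, adjusted p = 0.012), by −4.55 without thymic library 4, and uncalled without SI tuft library 2 (−2.55, adjusted p = 0.0535). The difference of SI tuft cells from SI epithelium was 3.22 (SE 0.96, adjusted p = 0.0312), and it was not called without any 1 of the 6 intestinal libraries (adjusted p = 0.0517 to 0.107). B3gnt5, which starts lacto-series glycolipids, averaged 0.733 ± 0.575 CPM in thymic tuft cells, 0.239 ± 0.194 CPM in SI tuft cells and 4.40 ± 1.10 CPM in SI epithelium (SD, n = 4, 3 and 3). Its call as lower in thymic tuft cells than in SI epithelium was lost without epithelium library 1 or 2 (adjusted p = 0.0579 and 0.068), and the log2 fold change of −2.58 was −3.28 without thymic library 2, while that of SI tuft cells against SI epithelium was −4.19 and was −5.09 without SI tuft library 3. B3gnt2, a poly-lactosamine synthase, averaged 3.41 ± 1.73 CPM in thymic tuft cells, 0.538 ± 0.249 CPM in SI tuft cells and 0.682 ± 0.193 CPM in SI epithelium. It was called higher in thymic tuft cells than in SI tuft cells (adjusted p = 0.0133; 0.0523 without SI tuft library 4) and than in SI epithelium (adjusted p = 0.0239; 0.0552 to 0.0893 without any 1 epithelium library or thymic library 3). It shares 2449 exon bases on the same strand with Gm28048, whose mean was at most 0.0212 CPM in any group, so its level may be understated. The other 3 genes of the role were at most 2.44 CPM in any library, and B3gnt4 had no count.

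B4galnt1, the GM2 and GD2 ganglioside synthase, had the highest level per kilobase of the whole family in thymic tuft cells and in SI epithelium. It had 258, 168, 257 and 255 CPM in thymic tuft cells, 373, 495 and 462 CPM in SI tuft cells and 689, 656 and 773 CPM in SI epithelium. B4galnt2, which makes the Sda antigen of the gut, had 3.44, 4.05, 4.36 and 1.18 CPM in thymic tuft cells, 118, 135 and 140 CPM in SI tuft cells and 233, 227 and 208 CPM in SI epithelium. The 3 groups were separate for both genes, and the thymic gap was far wider for B4galnt2. Thymic tuft cells were lower than SI tuft cells by −0.92 for B4galnt1 (SE 0.17, adjusted p = 0.000882) and −5.33 for B4galnt2 (SE 0.36, adjusted p = 1.97e-07). After subtraction the B4galnt2 difference was −6.03. In SI tuft cells B4galnt1 was lower than in SI epithelium by −0.67 (SE 0.19, adjusted p = 0.0222), which was not called without SI epithelium library 1 or 3 or SI tuft library 2 or 4 (adjusted p = 0.0515 to 0.0856). B4galnt2 differed there by −0.76 (SE 0.33, adjusted p = 0.127), and was called without thymic library 4 (adjusted p = 0.00232), with only these 2 groups in the fit (adjusted p = 0.000885) and after subtraction (adjusted p = 0.0465). B4galnt4 averaged 0.670 CPM in thymic tuft cells, 2.79 CPM in SI tuft cells and 8.37 CPM in SI epithelium. Thymic library 1 had 1.46 CPM and the other thymic libraries 0.231 to 0.589 CPM, and without library 1 the log2 fold changes of thymic tuft cells were −2.78 against SI tuft cells and −4.36 against SI epithelium, where the fit as made gave −2.06 and −3.64. The call of B4galnt4 against SI tuft cells was lost without SI tuft library 3 (adjusted p = 0.0695) or with only these 2 groups in the fit (adjusted p = 0.125). B4galnt3 averaged 4.69 CPM in thymic tuft cells, 15.3 CPM in SI tuft cells and 16.2 CPM in SI epithelium, with 15.5 CPM in thymic library 1 alone, and without that library it was called lower in thymic tuft cells than in both SI tuft cells (−3.81, adjusted p = 0.000869) and SI epithelium (−3.89, adjusted p = 0.000768).

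Fucosyltransferase transcripts were led by Fut2 in both tuft populations. Fut2 (ENSMUSG00000055978, chr7:45648591-45666394), the secretor enzyme that adds alpha-1,2-fucose in the gut, had 166, 208, 215 and 225 CPM in thymic tuft cells, 397, 306 and 305 CPM in SI tuft cells and 15.2, 16.4 and 13.4 CPM in SI epithelium. Fut4, an alpha-1,3-fucosyltransferase of the Lewis x pathway, had 4.80, 7.65, 13.4 and 6.58 CPM in thymic tuft cells, 11.8, 12.2 and 16.4 CPM in SI tuft cells and 47.3, 40.6 and 38.6 CPM in SI epithelium. Every tuft library lay above the epithelium for Fut2 and below it for Fut4. The Fut2 difference from SI epithelium was 3.76 in thymic tuft cells (SE 0.19, adjusted p = 2.36e-08) and 4.49 in SI tuft cells (SE 0.20, adjusted p = 1.56e-08). That of Fut4 was −2.38 (SE 0.34, adjusted p = 9.87e-05) in thymic tuft cells and −1.64 (SE 0.36, adjusted p = 0.00634) in SI tuft cells. Per kilobase Fut2 held 74.9% to 84.7% of the summed fucosyltransferase level in thymic tuft cells, 81.0% to 82.7% in SI tuft cells and 10.8% to 12.8% in SI epithelium. Between the tuft populations Fut2 was lower in thymic cells by −0.72 (SE 0.16, adjusted p = 0.00243), and Fut4 was called only without thymic library 3 (−1.09, adjusted p = 0.00696).

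Fut8, the core fucosyltransferase of N-linked chains, had 20.0, 13.9, 22.1 and 43.5 CPM in thymic tuft cells, 81.2, 62.4 and 63.5 CPM in SI tuft cells and 72.8, 67.0 and 70.9 CPM in SI epithelium. The intestinal groups overlapped and the thymic one lay below them, by −1.47 (SE 0.31, adjusted p = 0.00198) against SI tuft cells and −1.50 (SE 0.31, adjusted p = 0.00179) against SI epithelium. Fut1, the H enzyme that is the neighbour of Fut2 on chromosome 7, averaged 6.35 ± 3.61 CPM in thymic tuft cells, 0.00907 ± 0.0157 CPM in SI tuft cells and 0.347 ± 0.0388 CPM in SI epithelium (SD, n = 4, 3 and 3). The SI tuft libraries held 1 Fut1 count in all, in library 3. The mean in thymic tuft cells was 699 times that in SI tuft cells, with a 95% exact Poisson interval of 126 to 27600 that covers the error of this 1 count only, and the call was made with adjusted p = 4.4e-05. Fut9, a Lewis x enzyme of the nervous system, averaged 5.57 ± 5.99 CPM in thymic tuft cells, with 14.4 CPM in library 4, against 0.252 ± 0.152 CPM in SI tuft cells and 0.111 ± 0.0568 CPM in SI epithelium. Without thymic library 4 its log2 fold change was 3.36 against SI tuft cells (adjusted p = 0.00927) and 4.54 against SI epithelium (adjusted p = 0.00229). Fut11 had 5.91 to 11.4 CPM in thymic tuft cells, 3.83 to 8.29 CPM in SI tuft cells and 5.68 to 8.06 CPM in SI epithelium, and Fut10 had counts in 2 libraries only. Fut7, which makes sialyl Lewis x, stayed below 1 CPM everywhere, at 0.0154 CPM in thymic tuft cells, 0.499 CPM in SI tuft cells and 0.423 CPM in SI epithelium.

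**Figure D4:**
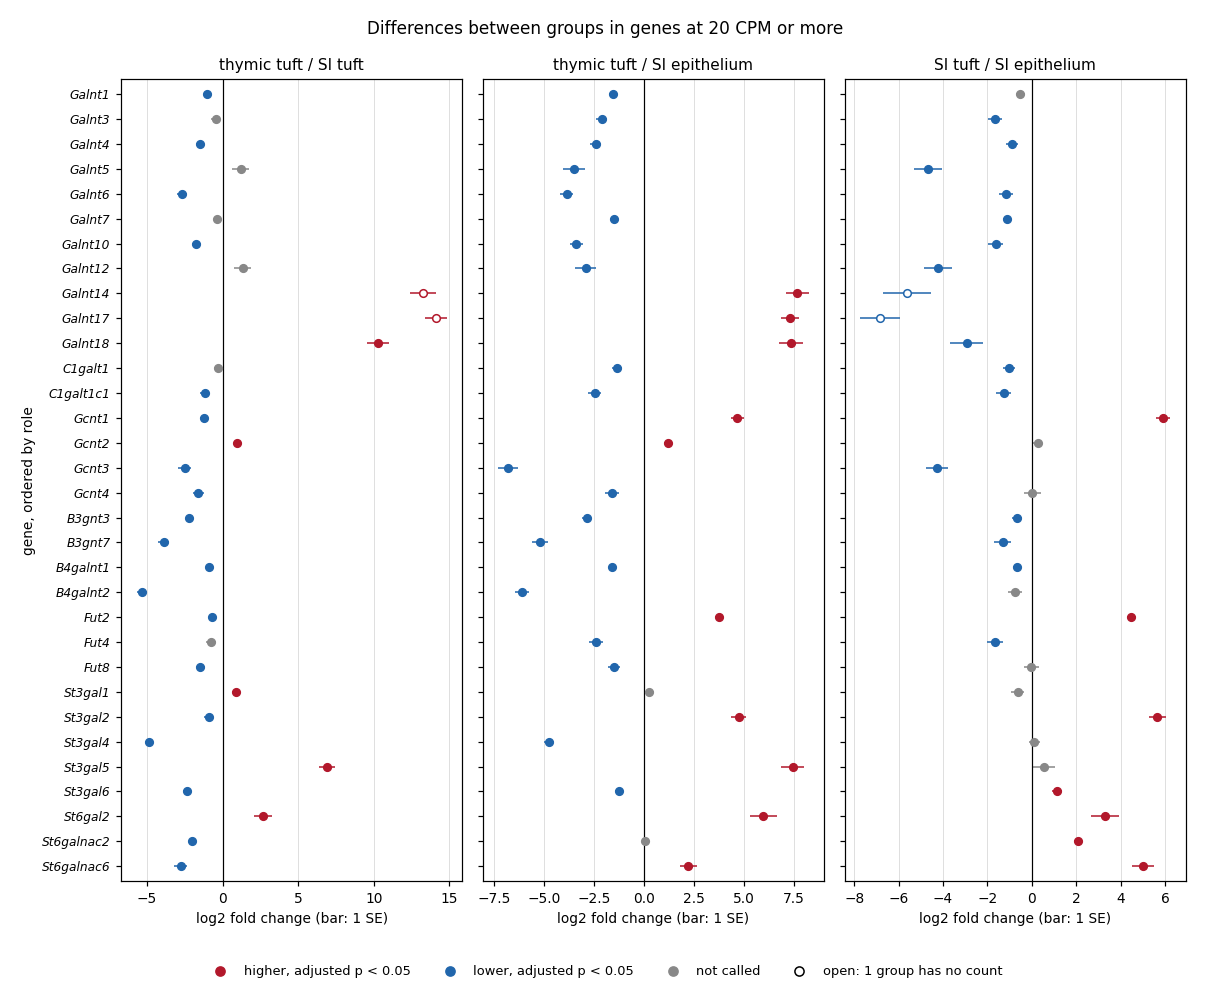
Log2 fold change with 1 standard error (x axis) of the 32 genes with a mean of 20 CPM or more in some group and a call in some comparison, for thymic tuft over SI tuft cells, thymic tuft cells over SI epithelium and SI tuft cells over SI epithelium. Red marks higher and blue lower at an adjusted p below 0.05, grey marks no call, and open points are fitted values where 1 group had no count, which are not bounds. Gcnt1, Fut2, St3gal2 and St6galnac6 are red against SI epithelium in both tuft groups.

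Sialic acid in alpha-2,3 linkage is added by St3gal enzymes, and St3gal2 and St3gal4 had opposite patterns. St3gal2 (ENSMUSG00000031749, chr8:110919922-110972480), which caps core 1 galactose and gangliosides, had 18.5, 17.5, 33.3 and 30.2 CPM in thymic tuft cells, 39.9, 50.1 and 50.1 CPM in SI tuft cells and 0.998, 0.679 and 1.11 CPM in SI epithelium. St3gal4 (ENSMUSG00000032038, chr9:35046576-35119268), which caps lactosamine ends and serves selectin ligands, had 12.5, 7.76, 12.8 and 6.41 CPM in thymic tuft cells, 273, 261 and 328 CPM in SI tuft cells and 252, 260 and 284 CPM in SI epithelium. St3gal2 was thus higher in both tuft populations than in SI epithelium, whereas St3gal4 was high in both intestinal groups, which overlapped. No thymic cells other than tuft cells were among the libraries, so St3gal2 could not be compared within the thymus. The St3gal2 difference from SI epithelium was 4.74 in thymic tuft cells (SE 0.36, adjusted p = 5.63e-07) and 5.65 in SI tuft cells (SE 0.38, adjusted p = 6.21e-07). Between thymic and SI tuft cells it was −0.91 (SE 0.29, adjusted p = 0.0191), and it was not called without SI tuft library 3 or 4 (adjusted p = 0.065 and 0.0632), with DESeq2 size factors (−0.67, adjusted p = 0.0711) or with only these 2 groups in the fit (adjusted p = 0.0615). St3gal4 was lower in thymic than in SI tuft cells by −4.86 (SE 0.25, adjusted p = 3.41e-08) and lower than in SI epithelium by −4.75 (SE 0.25, adjusted p = 3.95e-08). Enterocyte markers were likewise high in both intestinal groups and at 147 to 352 CPM in thymic tuft cells, and their part in the St3gal4 level was not tested.

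St3gal5 (ENSMUSG00000056091, chr6:72097592-72154571), the GM3 synthase that opens the ganglioside pathway, had 16.3, 23.6, 29.8 and 27.8 CPM in thymic tuft cells, 0.121, 0.299 and 0.185 CPM in SI tuft cells and 0.207, 0.0849 and 0.121 CPM in SI epithelium. St3gal6, an enzyme of selectin ligands, had 47.8, 30.3, 50.1 and 30.9 CPM in thymic tuft cells, 217, 199 and 207 CPM in SI tuft cells and 106, 98.3 and 77.6 CPM in SI epithelium. St3gal1, which caps core 1, had 29.9, 23.3, 35.2 and 26.7 CPM in thymic tuft cells, 16.9, 11.9 and 17.6 CPM in SI tuft cells and 17.2, 24.4 and 30.5 CPM in SI epithelium. St3gal5 was confined to thymic libraries at this level, St3gal6 was highest in SI tuft cells with no overlap, and St3gal1 was separate only between the tuft populations. St3gal5 was higher in thymic tuft cells by 6.91 over SI tuft cells (SE 0.55, adjusted p = 8.61e-07) and by 7.44 over SI epithelium (SE 0.57, adjusted p = 5.68e-07). Its few epithelial counts were 0.32% to 0.808% of those in the partner libraries. After subtraction SI epithelium held 2 St3gal5 counts, under the floor of 3, and SI tuft cells were called higher than SI epithelium (adjusted p = 0.00584), where the fit as made gave 0.53 (adjusted p = 0.516).

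St3gal6 was lower in thymic than in SI tuft cells by −2.38 (SE 0.21, adjusted p = 1.79e-06) and higher in SI tuft cells against SI epithelium by 1.15 (SE 0.22, adjusted p = 0.00282). It overlaps Dcbld2 on the opposite strand by 1603 exon bases, and the library kit keeps no strand. Dcbld2 averaged 13.5 CPM in thymic tuft cells, 4.41 CPM in SI tuft cells and 1.66 CPM in SI epithelium. Reads in the overlap may have been counted for either gene or for neither, which was not checked. Enterocyte markers were also highest in SI tuft cells, at 24600 to 30400 CPM against 12800 to 15000 CPM in SI epithelium. Their part in the St3gal6 level was not tested. St3gal1 was higher in thymic than in SI tuft cells by 0.90 (SE 0.28, adjusted p = 0.0169), which was not called without SI tuft library 3 (0.74, adjusted p = 0.0731). St3gal3, of the lactosamine type, had 5.21 to 23.1 CPM in thymic tuft cells, 12.5 to 14.1 CPM in SI tuft cells and 6.60 to 9.19 CPM in SI epithelium, and it was called higher in thymic tuft cells than in SI epithelium only without thymic library 4 (1.02, adjusted p = 0.0277). Per kilobase the 6 genes summed to 32.9 ± 7.48 in thymic tuft cells, 149 ± 12.7 in SI tuft cells and 113 ± 4.04 in SI epithelium, and St3gal4 held 7.41% to 14.1% of the sum in thymic tuft cells, 64.5% to 68.9% in SI tuft cells and 79.4% to 83.2% in SI epithelium.

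Among the alpha-2,6-sialyltransferases, St6galnac2 led per kilobase, and in SI tuft cells it had the highest level per kilobase of the family. St6galnac2, which adds sialic acid to the first GalNAc of O-linked chains, had 236, 277, 180 and 208 CPM in thymic tuft cells, 941, 978 and 804 CPM in SI tuft cells and 217, 211 and 212 CPM in SI epithelium. St6galnac6 (ENSMUSG00000026811, chr2:32599709-32620806), which acts on glycolipids, had 17.6, 12.9, 14.7 and 36.1 CPM in thymic tuft cells, 139, 138 and 143 CPM in SI tuft cells and 5.97, 5.29 and 1.79 CPM in SI epithelium. SI tuft cells stood far above both other groups for both genes. St6galnac2 was higher in SI tuft cells against SI epithelium by 2.09 (SE 0.17, adjusted p = 3.81e-06) and lower in thymic than in SI tuft cells by −2.01 (SE 0.16, adjusted p = 6.99e-07). Its thymic and epithelial libraries overlapped (0.08, SE 0.16, adjusted p = 0.709). The St6galnac6 difference from SI epithelium was 2.23 in thymic tuft cells (SE 0.44, adjusted p = 0.00121) and 5.01 in SI tuft cells (SE 0.51, adjusted p = 2.1e-05), and between thymic and SI tuft cells it was −2.78 (SE 0.41, adjusted p = 0.000146).

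St6gal2 (ENSMUSG00000024172, chr17:55445382-55514581), which caps N-linked chains, had 55.6, 35.0, 71.2 and 48.5 CPM in thymic tuft cells, 16.4, 6.23 and 1.95 CPM in SI tuft cells and 0.998, 0.828 and 0.666 CPM in SI epithelium. The 3 groups did not overlap, but the SI tuft libraries spread widely. Thymic tuft cells were higher than SI tuft cells by 2.68 (SE 0.57, adjusted p = 0.00211) and higher than SI epithelium by 5.98 (SE 0.69, adjusted p = 1.76e-05). SI tuft cells were higher than SI epithelium by 3.30 (SE 0.62, adjusted p = 0.00235). Without SI tuft library 2 the difference between tuft populations was 3.68 and that between SI tuft cells and SI epithelium was 2.30 (adjusted p = 0.000223 and 0.00615). After subtraction the differences from SI epithelium were 6.88 in thymic and 4.11 in SI tuft cells. St6gal1, its widespread relative, averaged 3.73 ± 3.17 CPM in thymic tuft cells, 0.441 ± 0.453 CPM in SI tuft cells and 1.20 ± 0.366 CPM in SI epithelium. Its call as higher in thymic than in SI tuft cells (3.07, adjusted p = 0.0218) was lost without SI tuft library 2 or 3 or thymic library 2 (adjusted p = 0.0634 to 0.0747), and its log2 fold change was 2.31 without thymic library 2 and 4.30 without SI tuft library 4. St6galnac4 averaged 3.17 ± 4.70 CPM in thymic tuft cells, with 10.2 CPM in library 1, against 0.0577 ± 0.0775 CPM in SI tuft cells and 1.03 ± 0.805 CPM in SI epithelium. It was higher in thymic than in SI tuft cells by 5.70 (adjusted p = 0.0112), by 3.77 without thymic library 1 and by 7.65 without SI tuft library 2. St6galnac1, the enzyme that makes sialyl-Tn, stayed below 1 CPM in all libraries, as did St6galnac3 and St6galnac5. St6galnac1 was called higher in thymic tuft cells than in SI tuft cells (adjusted p = 0.0164) and SI epithelium (adjusted p = 0.0107), each of which held 1 count in all. The call against SI tuft cells was lost without SI tuft library 3 or 4 (adjusted p = 0.0565) or with no filter (adjusted p = 0.0615).

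For the genes called higher in SI tuft cells, the level left in SI epithelium was compared with that of tuft cell markers, because the Flare25-negative gate could still hold some tuft cells. The markers in SI epithelium stood at 0.856% to 1.87% of their SI tuft level. Gcnt1 at 1.66% and St3gal2 at 1.99% were in or near this range, and St6galnac6 stood at 3.10% and Fut2 at 4.46%. St6gal2 at 10.1%, B3gnt6 at 10.7%, St6galnac2 at 23.5% and St3gal6 at 45.2% lay above it. With the thymic partner's share subtracted, St6gal2 stood at 5.73%, and the other 7 genes stood at 1.37% to 45.0%. The share was not subtracted from the markers, so these last values cannot be set against the marker range.

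Summed per kilobase, the roles differed in which population was highest. Fucosyltransferases summed to 47.3 ± 5.54 in thymic tuft cells, 75.6 ± 11 in SI tuft cells and 24.0 ± 1.68 in SI epithelium (SD, n = 4, 3 and 3). Alpha-2,6-sialyltransferases summed to 51.7 ± 5.59 in thymic tuft cells, 187 ± 16.1 in SI tuft cells and 38.3 ± 0.85 in SI epithelium. Branching enzymes summed to 21.9 ± 2.83 in thymic tuft cells, 33.2 ± 1.07 in SI tuft cells and 79.3 ± 0.513 in SI epithelium. Core 1 genes summed to 9.67 ± 2.91 in thymic tuft cells, 18.3 ± 0.173 in SI tuft cells and 42.6 ± 6.30 in SI epithelium, while core 3 and extension genes summed to 12.9 ± 2.51 in thymic tuft cells, 61.8 ± 1.21 in SI tuft cells and 101 ± 5.88 in SI epithelium. The beta-1,4-GalNAc transferases had the largest mean sum of any role in all 3 populations, 71.2 ± 13.3 in thymic tuft cells, 209 ± 24.9 in SI tuft cells and 340 ± 13.0 in SI epithelium. In thymic library 2 their sum of 51.7 was below those of initiation (60.0) and alpha-2,6-sialylation (57.4). In SI tuft library 2 their sum of 181 was below that of alpha-2,6-sialylation (194). Fucosyltransferase and sialyltransferase sums were thus highest in SI tuft cells, and the other sums were highest in SI epithelium. These sums were not tested.

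The mucin proteins that carry such chains differed in the population where their transcripts were highest. Muc2, the gel-forming mucin of goblet cells, averaged 224 ± 148 CPM in thymic tuft cells, 766 ± 66.4 CPM in SI tuft cells and 31300 ± 1430 CPM in SI epithelium (SD, n = 4, 3 and 3). The thymic libraries had 344, 313, 223 and 16.0 CPM of Muc2, and 36.3, 44.2, 14.7 and 16.0 CPM after subtraction of the share of their epithelial partners. Muc2 was lower in thymic than in SI tuft cells by −1.77 (adjusted p = 0.0321), a call lost with DESeq2 size factors, with only these 2 groups in the fit, or without thymic library 3 or any 1 SI tuft library (adjusted p = 0.056 to 0.0803), and by −4.70 (adjusted p = 1.17e-06) after subtraction. Muc13, a membrane mucin of the gut surface, averaged 156 ± 25.2 CPM in thymic tuft cells, 5860 ± 452 CPM in SI tuft cells and 4170 ± 795 CPM in SI epithelium. Enterocyte markers were also highest in SI tuft cells, and their part in the Muc13 level was not tested. Muc1, a membrane mucin of many epithelia, averaged 183 ± 38.5 CPM in thymic tuft cells, 7.51 ± 2.85 CPM in SI tuft cells and 1.31 ± 0.302 CPM in SI epithelium. The thymic group was thus highest for Muc1 and lowest for Muc13. Muc1 was higher in thymic than in SI tuft cells by 4.60 (SE 0.34, adjusted p = 4.07e-07) and Muc13 lower by −5.23 (SE 0.19, adjusted p = 2.87e-09). Muc13 was not called between SI tuft cells and SI epithelium (0.49, adjusted p = 0.0656), but it was by the DESeq2 Wald test (adjusted p = 0.049), with only these 2 groups in the fit, and without epithelium library 3 or thymic library 1 or 4 (adjusted p = 0.0239 to 0.0468). Muc15 averaged 40.4 ± 13.7 CPM in thymic tuft cells and had no count in SI tuft cells, with 0.314 ± 0.141 CPM in SI epithelium, and its call as lower in SI tuft cells against SI epithelium was lost after subtraction (adjusted p = 0.306). Muc4 averaged 53.3 ± 14.8 CPM in thymic tuft cells, 163 ± 3.40 CPM in SI tuft cells and 495 ± 74.0 CPM in SI epithelium. Muc5b, named here after its spread was seen, ranged over 7.56 to 314 CPM among thymic libraries, and was called higher there than in SI tuft cells (3.97, adjusted p = 0.0298) but not without thymic library 3 (2.15, adjusted p = 0.14) or any 1 SI tuft library (adjusted p = 0.0555 to 0.0711), and Muc5ac had 34.1, 22.8, 22.2 and 0.019 CPM there. Muc3 and Muc3a may be close enough in sequence for reads to be split, which was not checked. No level is given for either, and both are in the counts that follow. Of 11 mucin genes tested, 6 were higher and 4 lower in thymic than in SI tuft cells, 6 higher and 5 lower in thymic tuft cells than in SI epithelium, and 1 higher and 4 lower in SI tuft cells against SI epithelium. Over all genes the shares called higher and lower were 28.5% and 23.1%, 28.6% and 22.3%, and 10.9% and 11.4% in these comparisons. Nothing particular to mucins is read from these counts.

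Genes that supply sugars to these enzymes moved both ways in thymic tuft cells, with more lower than higher calls. Of 17 tested genes for sugar nucleotide synthesis, 2 were higher and 6 lower in thymic than in SI tuft cells, where 28.5% and 23.1% of all genes were called, 1 higher and 11 lower in thymic tuft cells than in SI epithelium, and 0 higher (1 at an unadjusted edgeR p below 0.05) and 3 lower in SI tuft cells against SI epithelium. With only the 2 intestinal groups in the fit the last counts were 1 and 8. Over all genes 28.6% were called higher and 22.3% lower in thymic tuft cells than in SI epithelium. Between SI tuft cells and SI epithelium the shares were 10.9% and 11.4%. The same shares hold beside the transporter counts below. Gfpt2, a first enzyme of UDP-GlcNAc synthesis, averaged 12.1 ± 11.9 CPM in thymic tuft cells, with 29.4 CPM in library 2, against 0.0253 ± 0.0244 CPM in SI tuft cells and 0.189 ± 0.129 CPM in SI epithelium. Uap1, which makes UDP-GlcNAc, averaged 70.9 ± 31.9 CPM in thymic tuft cells, 36.1 ± 2.32 CPM in SI tuft cells and 56.8 ± 6.07 CPM in SI epithelium. Gmds, which opens GDP-fucose synthesis, averaged 4.75 ± 4.57 CPM in thymic tuft cells, 36.4 ± 2.41 CPM in SI tuft cells and 92.8 ± 5.91 CPM in SI epithelium. Uap1 was higher in thymic than in SI tuft cells by 0.98 (SE 0.28, adjusted p = 0.0118), Gfpt2 was called higher (adjusted p = 0.000126), and Gmds was lower by −2.93 (SE 0.62, adjusted p = 0.00184), or −3.80 without thymic library 3. Of 8 Golgi sugar nucleotide transporters, 1 was higher and 5 lower in thymic than in SI tuft cells, 0 higher and 6 lower in thymic tuft cells than in SI epithelium, and 0 were called either way between SI tuft cells and SI epithelium. These counts of 0 were also 0 at an unadjusted edgeR p below 0.05, but with only the 2 intestinal groups in the fit 3 transporters were called higher and 2 lower in SI tuft cells, without thymic library 4 2 were called higher there, and the DESeq2 Wald test called 1 higher in thymic tuft cells than in SI epithelium. Slc35b4, a transporter of UDP-xylose and UDP-GlcNAc, averaged 17.6 ± 5.32 CPM in thymic tuft cells, 6.81 ± 2.12 CPM in SI tuft cells and 11.9 ± 1.61 CPM in SI epithelium, and was higher in thymic than in SI tuft cells by 1.37 (adjusted p = 0.00756). Slc35a3, a UDP-GlcNAc transporter, averaged 28.1 ± 13.4 CPM in thymic tuft cells, 125 ± 11.1 CPM in SI tuft cells and 87.0 ± 8.60 CPM in SI epithelium. Slc35c1, the GDP-fucose transporter, averaged 26.9 ± 16.7 CPM in thymic tuft cells, 96.4 ± 10.2 CPM in SI tuft cells and 151 ± 25.7 CPM in SI epithelium.

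Other chain-building and chain-trimming genes went both ways. Over all genes, 28.5% were called higher and 23.1% lower in thymic than in SI tuft cells. The shares were 28.6% and 22.3% in thymic tuft cells against SI epithelium, and 10.9% and 11.4% in SI tuft cells against SI epithelium. Nothing particular to the lists below is read from their counts. Of 13 tested galactosyl- and related transferases, 4 were higher and 4 lower in thymic than in SI tuft cells, 5 higher and 1 lower in thymic tuft cells than in SI epithelium, and 2 higher and 2 lower in SI tuft cells against SI epithelium. In place of the 4 lower calls between thymic and SI tuft cells there were 2 with DESeq2 size factors or after subtraction. B4galt5, a lactosylceramide synthase, averaged 127 ± 22.1 CPM in thymic tuft cells, 314 ± 30.7 CPM in SI tuft cells and 63.9 ± 6.81 CPM in SI epithelium. Ggta1, which makes the alpha-Gal epitope, averaged 37.9 ± 14.2 CPM in thymic tuft cells, 0.216 ± 0.277 CPM in SI tuft cells and 0.398 ± 0.323 CPM in SI epithelium. Of 9 tested carbohydrate sulfotransferases, 4 were higher and 3 lower in thymic than in SI tuft cells, 4 higher and 4 lower in thymic tuft cells than in SI epithelium, and 1 higher and 3 lower in SI tuft cells against SI epithelium. Chst2 and Chst4 both sulphate GlcNAc. Chst2 averaged 101 ± 37.3 CPM in thymic tuft cells, 23.2 ± 6.54 CPM in SI tuft cells and 2.09 ± 0.98 CPM in SI epithelium, whereas Chst4 averaged 0.895 ± 0.549 CPM in thymic tuft cells, 10.5 ± 2.85 CPM in SI tuft cells and 117 ± 6.76 CPM in SI epithelium. The thymic libraries had 1.17, 1.32, 0.997 and 0.095 CPM of Chst4, and 0.0329, 0.283, 0.231 and 0.095 CPM after subtraction, and the log2 fold change of thymic against SI tuft cells was −3.55 as fitted and −5.93 after subtraction. Of 4 tested sialidase and sialate esterase genes, 1 was higher and 2 lower in thymic than in SI tuft cells, 1 was higher and 0 lower in thymic tuft cells than in SI epithelium, and 2 were higher and 0 lower in SI tuft cells against SI epithelium. At an unadjusted edgeR p below 0.05 both counts of 0 were again 0. Siae, the esterase, averaged 39.8 ± 14.8 CPM in thymic tuft cells, 122 ± 15.1 CPM in SI tuft cells and 39.7 ± 5.64 CPM in SI epithelium.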

How the data were processed

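Gene counts of 10 libraries were used as the authors deposited them. Per the submitters' processing notes the tools were STAR and DESeq2 and the build was GRCm38; versions and the counting tool are not given in the sources used here. Per the labels' protocols, poly(A) RNA was amplified with the NuGEN Ovation V2 kit and libraries were made with Nextera XT, which keep no strand. Per the series' design text, quality control removed 1 library of SI tuft cells and 1 of SI epithelium. Symbols, types, coordinates and exon lengths came from GENCODE M21, which listed 42548 of 43432 identifiers. The matching non-coding gene Galnt6os was left out.

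Genes were kept by filterByExpr with a minimum count of 10, a total of 15 and a smallest group of 3; 19281 passed. Libraries were scaled by TMM, and edgeR 4.0.16 quasi-likelihood tests (R 4.3.3) used 1 model of the 3 group means across the 10 libraries, adjusted by Benjamini-Hochberg over all genes. The procedure was tested on simulated counts. CPM used the scaled library sizes, and per-kilobase levels used union exon length. A standard error was taken as the size of the log2 fold change over the square root of its F value. A group at 0 was set at 3 counts over the group.

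Alternatives were DESeq2 size factors, no filter, the DESeq2 1.42.0 Wald test, a model of the 2 groups compared alone, a replicate block, subtraction of the partner library's share and removal of each library. Partners were found from the counts: in a joint fit each SI epithelium library held 0.505% to 0.847% of 1 thymic library and at most 0.179% of any other. The share was the median ratio of counts, over 282 genes with at least 2000 thymic counts and at most 2 SI tuft counts in all, and, in the other direction, over 6 genes abundant in SI epithelium and nearly absent from SI tuft cells and thymic library 4.

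Values in every library are given for genes with a mean of at least 20 CPM in some group and a call in some comparison. From each list up to 3 genes each way at 10 CPM or more could be named; Muc5b was added after its values were seen, and 1 gene that the rule names is not reported here. The gene family, the lists and the alternatives were chosen with earlier results of these data known. Counting errors of the amplified reads are not separate from those of molecules.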

Additional observations from a re-analysis of the deposited data

Results flagged for a closer look

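Of the 32 genes given by library, 2 had a thymic tuft library far from the other 3 of its group. Chance flags about 1 in 20 groups. B4galnt1 had 168 CPM in thymic library 2, where the others had 255 to 258 CPM, a gap of 0.966 of the group's range. Gcnt3 had 0.494 CPM in thymic library 4, where the others had 2.82 to 3.27 CPM, a gap of 0.836 of the range. Library 4 is the thymic library with no partner in SI epithelium, and after subtraction of the shared part the other 3 held 0.740 to 0.925 CPM.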

How the results depend on the processing

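The counts of higher and lower calls in the family were recomputed under 16 alternatives. For SI tuft cells against SI epithelium, 13 lower calls were left without SI epithelium library 1, where the fit as made gave 20. Removing single libraries gave 7 to 8 higher and 13 to 22 lower calls in that comparison, 13 to 17 higher and 20 to 23 lower for thymic against SI tuft cells, and 14 to 17 higher and 24 to 26 lower for thymic tuft cells against SI epithelium. A total of 7 higher and 9 lower, 10 higher and 18 lower, and 14 higher and 24 lower calls held under every alternative in these comparisons. Over single genes, 2436 of 2588 recomputed values kept their direction and side of the threshold, 24 changed sign with neither value called, 88 lost a call, 38 gained one, and 2 turned with a call on one side. Subtraction of the shared counts gave Galnt18 a log2 fold change of 0.43 in SI tuft cells against SI epithelium. Removal of SI tuft library 2 gave Galntl6 5.21 (adjusted p = 0.0297, with −1.19 as the lowest value over single removals) in thymic against SI tuft cells, a fitted value against a group with no count, because library 2 held all of its SI tuft counts. Same-numbered deviations from group means correlated at −0.0406 to 0.102. The value of 0.102 was that of SI epithelium library 2 and thymic library 2, which share counts. These correlations cannot show whether same-numbered libraries came from the same mouse. With the replicate block the calls were 15 higher and 23 lower for thymic against SI tuft cells. They were 16 higher and 25 lower for thymic tuft cells against SI epithelium, and 7 higher and 16 lower for SI tuft cells against SI epithelium. The biological coefficient of variation was 0.785 in thymic tuft cells, 0.489 in SI tuft cells and 0.26 in SI epithelium, so the spread between libraries was widest in thymic tuft cells.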
